A study of Mus musculus with 32 samples.

Results

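The cytosolic ribosomal protein genes are the 61 gene symbols on this mouse cDNA array that begin with Rpl or Rps and a digit, or with Rplp and a digit. Kinases of the Rps6k family and pseudogenes were left out. These symbols were 61 of 17053 genes measured in the series and were read by 92 probes, 38 symbols by 1 probe and 23 by more, at most 5. By name, 35 belong to the large subunit, 22 to the small subunit and 3 to the stalk (Rplp0, Rplp1 and Rplp2). The symbol Rps19bp1, which the naming rule also takes, encodes a protein that binds Rps19 and is no ribosomal protein. The set holds 5 paralogs with an added l in the symbol (Rpl7l1, Rpl22l1, Rpl36al, Rpl39l and Rps27l).

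Ribosomal proteins fold around ribosomal RNA to form the small subunit, which reads the messenger RNA, and the large subunit, which joins amino acids. Their genes are highly expressed in most tissues, and the proteins are made in matched amounts, with surplus protein degraded. Many of their messenger RNAs start with a pyrimidine tract, through which mTOR signalling controls how fast they are translated. Nox4, the deleted gene, encodes an NADPH oxidase that makes hydrogen peroxide.

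The series holds 32 arrays. Nox4 -/- male mice of strain C57BL/6, aged 17 weeks, gave brain, kidney, muscle and pancreas from each of 4 animals. Every RNA went on 2 arrays of opposite dye orientation, with a pool of wild-type RNA from males of that strain and age in the other channel. The labels give 4 wild-type animals for the pool in one place and 6 control animals in another, so its size is not settled. Values are log2 ratios, which likely run knockout over pool, so 0 means equal signal. In the opposite case, every higher value below is a lower one. The pool is 1 control sample on all arrays of a tissue, so no test below holds the spread between wild-type animals. Ratios carry no level, so neither the labelled tissues nor the abundance of 1 gene against another can be checked. In RNA of whole tissue, fewer cells of a type and less RNA per cell cannot be told apart.

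Arrays carried 19815 to 20684 values for 20794 probes, and array medians lay between −0.07 and 0.05. No probe carries the name Nox4 (0 of 20794), so the targeted transcript cannot check the labels. Values beyond 8 in size stood apart from all others (1844 of 655162, or 0.281%), with 0 between 8 and 15. Such values, called extreme here, were all positive where the knockout was in Cy5 and all negative where it was in Cy3. Among the ribosomal protein probes they numbered 10 of 2898. They were kept as deposited, and results that rest on them are named as such.

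Start sites are shown first because the pyrimidine tract is the sequence feature these genes are known for. RefSeq promoter sequences (assembly GRCm38.p6) were matched by symbol for 53 of the 61 genes. A start-site tract was counted where a C within 5 bases of the annotated start was followed by at least 4 further C or T. The C could lie before or after that start, and whether transcripts of these tissues start there was not tested. Such a tract was found in 23 of the 53 genes (43.4%), which include Rps19bp1 (without a tract). It was found in 1729 of 7299 array genes in the same table (23.7%). The letters CCGGAAG, the core of sites for ETS factors, stood on either strand of 21 of these promoters (39.6%, against 18.1% of all). The letters TATAAA stood on either strand of 6 (11.3%, against 10.1%). Median GC content of these promoter windows (250 bases before to 50 after the start) was 58.0% in the set and 60.1% in all. The following windows of 20 bases either side of the start belong to genes described below, with the tract in capitals.
Rps10, chr17:27635225-27635264, minus strand: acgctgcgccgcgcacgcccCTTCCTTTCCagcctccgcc
Rps6, chr4:86857348-86857387, minus strand: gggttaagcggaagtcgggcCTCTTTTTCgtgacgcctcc
Rps15a, chr7:118116128-118116167, minus strand: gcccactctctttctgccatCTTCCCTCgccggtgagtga
Rpl12, chr2:32961692-32961731, plus strand: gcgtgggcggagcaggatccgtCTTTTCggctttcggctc
Rplp2, chr7:141447631-141447670, plus strand: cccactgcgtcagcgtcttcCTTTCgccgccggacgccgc
Rps27l, chr9:66946066-66946105, plus strand: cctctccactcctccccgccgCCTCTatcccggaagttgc
The capitals run from the C nearest to the annotated start, and pyrimidines just before it are left in lower case. Genes with and without such letters at the start had median log2 ratios of 0.0044 and 0.0026 in brain, and of −0.012 and 0.0037 in kidney. The medians were −0.041 and −0.092 in muscle, and 0.017 and 0.041 in pancreas. No test was made of these medians.

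No ribosomal protein gene passed the test in any tissue of the knockout. The mean over animals was tested against 0 by limma with Benjamini-Hochberg adjustment over all genes, at an adjusted p threshold of 0.05. Every SE given below is limma's moderated SE, which draws on the spread of all genes and can differ from that of the animals alone. In brain, 0 of 60 measured members and 0 of 16729 genes (0%) were called. Kidney gave 0 of 60 members and 0 of 16825 genes (0%). Muscle gave 0 of 60 and 0 of 16662 (0%), and pancreas 0 of 58 and 0 of 16377 (0%). Among brain members the smallest adjusted p was 0.773, among kidney members 0.511, among muscle members 0.567 and among pancreas members 0.991.

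At an unadjusted p under 0.05, limma marked 2 members in brain (3.33%, against 4.13% of all genes) and 8 in kidney (13.3%, against 9.28%). It marked 1 in muscle (1.67%, against 7.29%) and 0 in pancreas (0%, against 2.91%). The kidney members so marked were 4 above and 4 below 0. These shares lay near or below those of all genes except in kidney, and no test of the shares was made.

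The set as a whole sat close to 0. The median over members of the mean log2 ratio was 0.0081 for brain, 0.0068 for kidney, −0.061 for muscle and 0.020 for pancreas. The same median over all genes was 0.0074, 0.0026, −0.024 and 0.00075 in that order. Means below 0 were found for 26 of 60 members in brain (43.3%, against 46.6% of all genes) and 28 of 60 in kidney (46.7%, against 48.5%). In muscle 42 of 60 members lay below 0 (70%, against 58.4% of all genes), and in pancreas 25 of 58 (43.1%, against 49.6%). With each array centred on its median, the muscle count was 38 of 60 (63.3%, against 53.5%), and with the Cy3 arrays turned in sign it was 31 of 60 (51.7%, against 50%). With arrays centred and scaled it was 42 of 60 (70%, against 54.7%). Leaving out animal 3 gave 38 of 60 below 0 in muscle (63.3%, against 59.97% of all genes). On muscle arrays with the knockout in Cy5, 40 of 61 lay below 0 (65.6%, against 52.3%). With the knockout in Cy3, 37 of 60 did (61.7%, against 51.8%). No test of these shares was made.

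**Figure D1:**
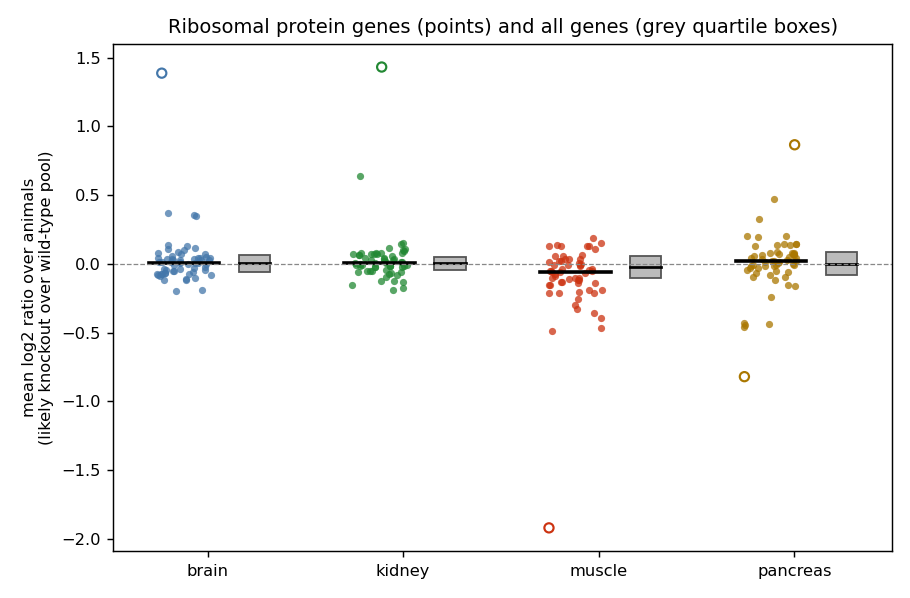
Mean log2 ratio of each ribosomal protein gene over 4 knockout animals (points, left) and the quartile box of all genes (grey, right) in each tissue. Black lines are medians and open circles are means that include an extreme value. Points gather around 0 in every tissue, and the muscle median is the lowest at −0.061.

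Animals differed by amounts of the same order as these medians. Over the members, animals 1 to 4 had medians of 0.0026, 0.020, 0.0030 and 0.013 in brain. The kidney medians were 0.029, −0.010, −0.0071 and 0.022. Muscle had 0.00050, −0.056, −0.086 and −0.038, and pancreas 0.025, 0.014, −0.041 and 0.010. In muscle the medians of animals 2, 3 and 4 lay below 0, and that of animal 1 was close to 0 (−0.00050 without the member that held an extreme value). Brain animal medians had an SD of 0.0084, kidney 0.020, muscle 0.036 and pancreas 0.029. Other genes of the muscle arrays also had animal medians below 0, at −0.010, −0.035, −0.025 and −0.030.

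**Figure D2:**
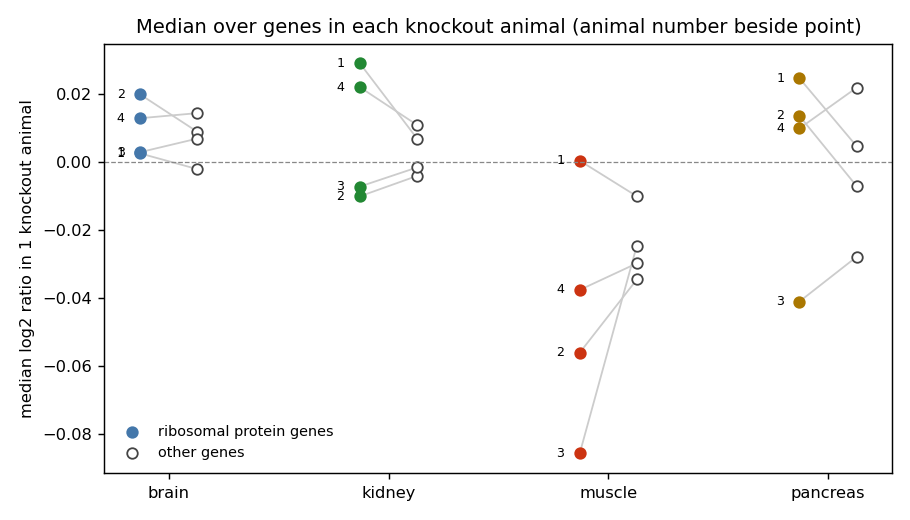
Median log2 ratio in each knockout animal over the ribosomal protein genes (filled, with the animal number) and over all other genes (open), joined per animal. In muscle the ribosomal protein medians run between 0.00050 and −0.086, the lowest being animal 3.

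The spread of single genes between animals sets what could be seen. Brain members had a median SD over animals of 0.10, against 0.13 for all genes. In kidney the SD was 0.095 (all genes, 0.099), in muscle 0.15 (0.17) and in pancreas 0.19 (0.22). The 95% confidence interval of a member reached a median of 0.14 to either side of the mean in brain. For kidney this reach was 0.12, for muscle 0.22 and for pancreas 0.25. The whole interval lay within 0.5 of 0 for 56 of 60 members in brain, 58 of 60 in kidney, 48 of 60 in muscle and 44 of 58 in pancreas. It lay within 1 of 0 for 59, 58, 59 and 52 members. These intervals use the moderated SE and cover the spread of the knockout animals only.

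By subunit, the 35 large subunit genes measured in brain had a median log2 ratio of 0.0026 and the 22 small subunit genes 0.021. In kidney the medians were 0.0098 (n = 35) and −0.012 (n = 22). Muscle had −0.055 for the large subunit, with 23 of 35 genes below 0, and −0.10 for the small subunit, with 16 of 22 below 0. In pancreas the large subunit median was 0.048 (n = 34) and that of the small subunit −0.0079 (n = 21). The subunits were not tested against 0 as lists or against each other.

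Few members kept 1 direction in every animal. Above 0 in all 4 animals were 5 of 59 members in brain (8.47%, against 8.86% of all genes), 5 of 59 in kidney (8.47%, against 10.1%), 4 of 58 in muscle (6.90%, against 6.85%) and 0 of 57 in pancreas (against 5.42%). Below 0 in all 4 were 3 members in brain (5.08%, against 6.73%), 7 in kidney (11.9%, against 9.85%), 7 in muscle (12.1%, against 12%) and 3 in pancreas (5.26%, against 5.15%). Most of these shares lay near those of all genes, some above and some below. The widest gap was in pancreas, where 0 of 57 members lay above 0 in all animals against 5.42% of all genes. No test of the shares was made.

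Large subunit genes of the brain are described first. Rpl27 had log2 ratios of 0.40, 0.080, 0.20 and 0.78 in knockout animals 1 to 4, a mean of 0.37 ± 0.12 (SE, n = 4; limma adjusted p = 0.773). All animals lay above 0, and 7 of 8 arrays did, but the animals spanned a wide range. Rpl32 had 0.088, 0.17, 0.038 and 0.23, with a mean of 0.13 ± 0.052 (SE, n = 4; limma adjusted p = 0.773). On the low side Rpl22, an RNA-binding large subunit protein with the close paralog Rpl22l1, had −0.066, −0.53, −0.15 and −0.037. Its mean of −0.20 ± 0.095 (SE, n = 4) rested most on animal 2. That mean lay below the means of both its probes, −0.15 and −0.076, so neither probe alone bears out its size. Rpl12, a protein at the base of the stalk, had a brain mean of −0.077 and Rpl26, which lies near the exit of the peptide tunnel, one of −0.029. Both were below 0 in all 4 animals. The sign of Rpl26 followed the dye on every array, however. It ran from −0.402 to −0.023 with the knockout in Cy5 and from 0.021 to 0.395 with it in Cy3.

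Rps27l, a paralog of Rps27 whose human gene is a p53 target, had brain values of 0.048, 0.23, 0.064 and 0.20. Its mean was 0.14 ± 0.053 (SE, n = 4; limma adjusted p = 0.773), above 0 in 7 of 8 arrays. Rps27 itself, chosen after its values were seen, had 0.37, 0.39 and 0.30 in the 3 brain animals with both arrays, a mean of 0.35 ± 0.055 (SE, n = 3). Of its 7 brain arrays, 4 were above 0. In kidney Rps27 had 0.81, 1.86, 0.017 and −0.11, so the animals did not share a direction there.

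Single kidney genes had the smallest median SD over animals of the 4 tissues (0.095). Rpl37a, a large subunit protein that binds zinc, had −0.27, −0.16, −0.19 and −0.13. Its mean of −0.19 ± 0.041 (SE, n = 4) had a limma adjusted p of 0.511, and 1 of 8 arrays was above 0. Rps20, a protein of the small subunit head, had −0.24, −0.10, −0.11 and −0.24, a mean of −0.17 ± 0.044 (SE, n = 4; limma adjusted p = 0.511). It was below 0 on all 8 kidney arrays. In ratio terms the mean of Rps20 is 0.886 of the pool and that of Rpl37a 0.876. Rpl22 was again below 0 in all animals, with a kidney mean of −0.13 ± 0.045 (SE, n = 4).

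Kidney genes above 0 in all animals included Rps15, Rps6 and Rpl5. Rps15, which reaches toward the decoding centre, had 0.055, 0.21, 0.17 and 0.14, a mean of 0.15 ± 0.042 (SE, n = 4; limma adjusted p = 0.511). Rps6, the small subunit protein phosphorylated by S6 kinases downstream of mTOR, had 0.12, 0.081, 0.0995 and 0.12. These values lay within a narrow band, and the mean of Rps6 was 0.10 ± 0.035 (moderated SE, n = 4; limma adjusted p = 0.522). Rpl5, which with Rpl11 and 5S RNA can bind Mdm2, had 0.18, 0.066, 0.083 and 0.13 and was above 0 on 8 of 8 arrays. Its mean was 0.12 ± 0.039 (SE, n = 4; limma adjusted p = 0.522). None of these kidney genes passed the adjusted test.

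Muscle held the lowest single mean without an extreme value. Rps19, a small subunit protein whose human gene is mutated in Diamond-Blackfan anaemia, had −0.41, −0.92, −0.44 and −0.18 in knockout animals 1 to 4. Its mean was −0.49 ± 0.13 (SE, n = 4), a ratio of 0.714 to the pool, with a limma adjusted p of 0.567. Of its 8 arrays 1 was above 0, at 0.58 in animal 4 with the knockout in Cy3, whose other array gave −0.93. With the spread shared over all 4 tissues, limma gave Rps19 an adjusted p of 0.0372, among 255 genes called in muscle under that setting. The other tissues had Rps19 means of 0.0020 in brain, 0.074 in kidney and −0.16 in pancreas.

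Other low muscle means rested on fewer animals. Rps10, another small subunit protein linked to Diamond-Blackfan anaemia, had −0.078, −0.44, −1.22 and −0.12, a mean of −0.46 ± 0.21 (SE, n = 4; limma adjusted p = 0.662). Rpl26 had −0.014, −0.28, −1.20 and −0.094, a mean of −0.40 ± 0.21 (SE, n = 4). Animal 3 gave the lowest value of both genes. In that animal 13 of 58 members lay beyond 0.5 in size (22.4%, against 15.8% of other genes), while animals 1, 2 and 4 had 0, 4 and 1. Apart from the extreme value of Rpl27a, its members ran from −1.296 (Rps12) to 1.51 (Rps19bp1).

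High muscle means were smaller. Rps16 had 0.044, 0.052, 0.30 and 0.14, a mean of 0.13 ± 0.070 (SE, n = 4). Rpl36a had 0.030, 0.21, 0.14 and 0.15 with a mean of 0.13 ± 0.062 (SE, n = 4). Rpl11, the partner of Rpl5, had 0.060, 0.16, 0.082 and 0.22, a mean of 0.13 ± 0.061 (SE, n = 4). Rps16 and Rpl36a were above 0 on 4 of 8 arrays each and Rpl11 on 7. For Rps16 the arrays above 0 were those with the knockout in Cy3, in every animal. Their limma adjusted p values were 0.664 to 0.687.

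In pancreas, where single genes had the largest median SD over animals (0.19), 0 members lay above 0 in every animal and 3 lay below. Rpl12 had −0.19, −0.074, −0.10 and −0.025, a mean of −0.098 ± 0.073 (SE, n = 4). Rps4x, the X-linked small subunit gene, had a mean of −0.085 ± 0.071 (SE, n = 4) and Rpl32 one of −0.066 ± 0.070 (SE, n = 4). Each of these had a limma adjusted p of 0.991. Rpl32 was below 0 on every array with the knockout in Cy5 and above 0 on every array with it in Cy3. Rpl12 and Rps4x were likewise below 0 on every array with the knockout in Cy5. With it in Cy3, both were above 0 in animals 1, 2 and 4 and below 0 in animal 3.

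**Figure D3:**
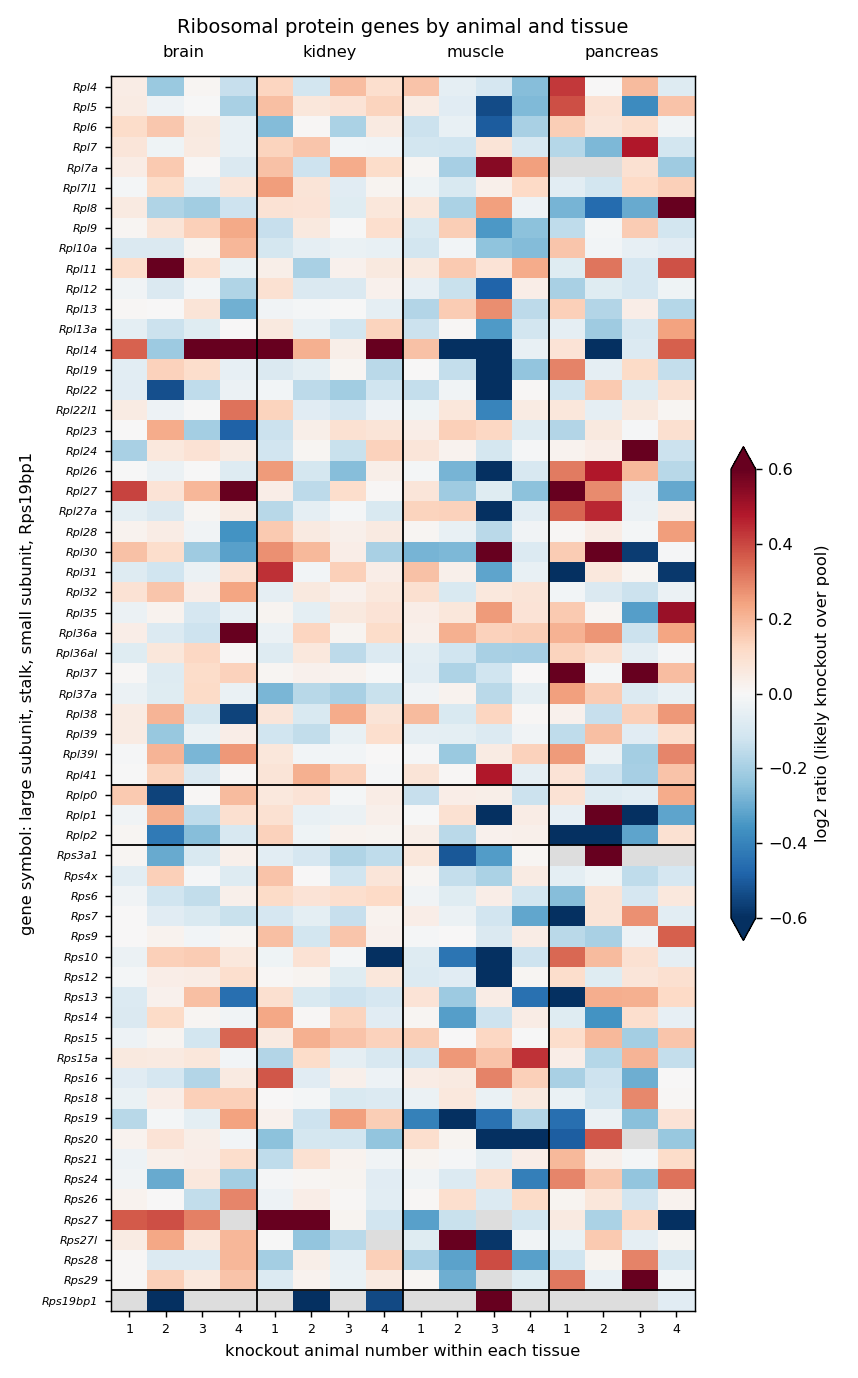
Log2 ratio of every ribosomal protein gene (rows, by subunit) in each knockout animal (columns, 4 per tissue). Values past the ends of the colour scale take its end colours, and grey cells have no value from both arrays. Muscle animal 3 stands out, with 13 of 58 members beyond 0.5 in size.

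The stalk genes encode the acidic proteins that recruit elongation factors, with Rplp0 holding Rplp1 and Rplp2. Rplp0 had brain values of 0.16, −0.56, 0.0065 and 0.19, and its brain mean was −0.051, its kidney mean 0.044, its muscle mean −0.048 and its pancreas mean 0.041. Rplp1 had −0.00050, 0.092, −0.97 and 0.044 in muscle, and −0.048, 0.82, −1.43 and −0.32 in pancreas. Its muscle mean of −0.21 ± 0.20 (SE, n = 4) was set by animal 3, and without that animal it was 0.045. Rplp2 had −0.90, −0.64, −0.31 and 0.091 in pancreas, a mean of −0.44 ± 0.18 (SE, n = 4; limma adjusted p = 0.991). In brain Rplp2 had 0.0095, −0.42, −0.26 and −0.097, a mean of −0.19 ± 0.082 (SE, n = 4). Kidney and muscle means of Rplp2 were 0.038 and −0.018. The 3 stalk genes had no common direction, except that all 3 means were above 0 in kidney and below 0 in muscle, and none passed the test.

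**Figure D4:**
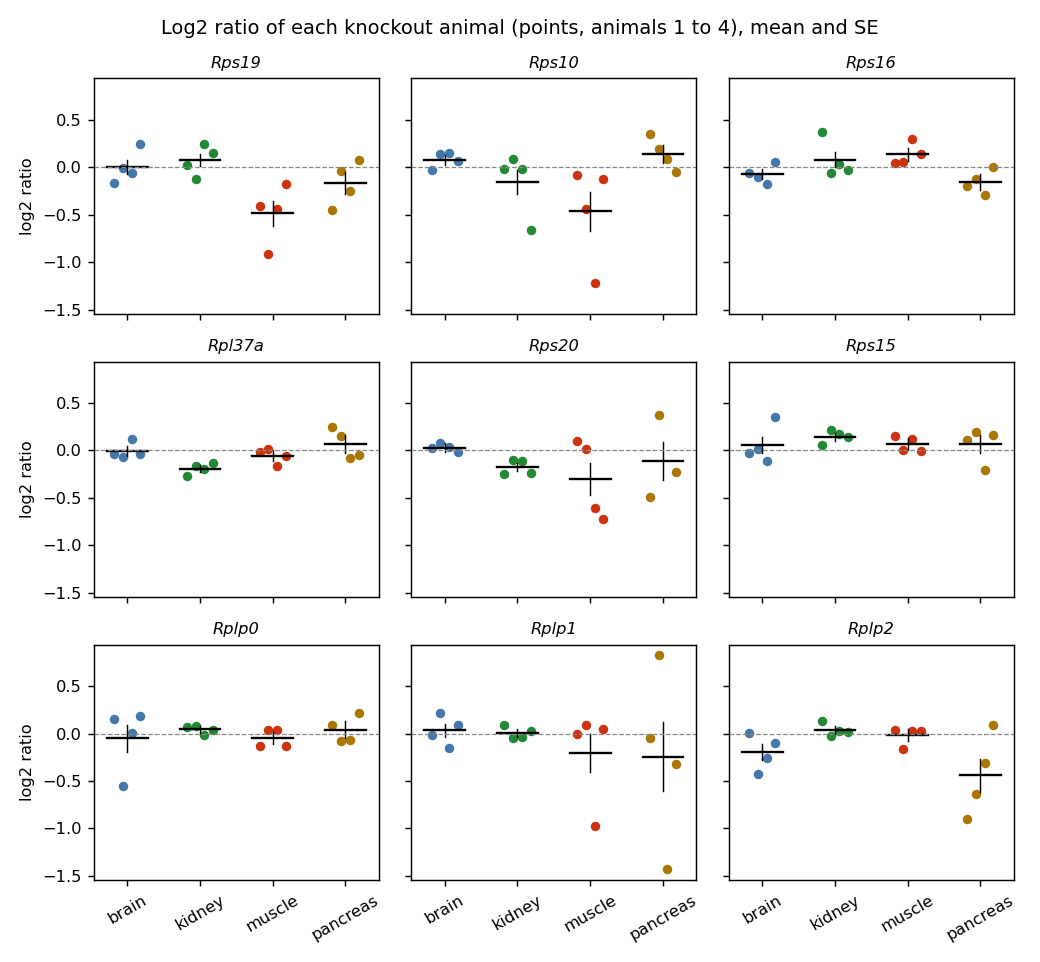
Log2 ratios of 9 ribosomal protein genes in the 4 knockout animals of each tissue (points), with the mean (long bar) and moderated SE (vertical line). Rps19 lies below 0 in all muscle animals, and Rplp1 shows single low values in muscle and pancreas.

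Extreme values set the means of a few members. Rpl14 had a mean of 1.39 in brain and 1.43 in kidney, and its extreme values came from 1 of its 3 probes, in brain animals 3 and 4 and kidney animals 1 and 4. Rpl27a had −7.89 in muscle animal 3, and 0.13, 0.14 and −0.065 in animals 1, 2 and 4. Rpl30 had 3.89 in pancreas animal 2, and Rps13 −3.84 in pancreas animal 1. Rps3a1 in pancreas and Rps19bp1 in brain and kidney also held such values and had too few animals for a mean there. With extreme values taken as missing, 0 members were called in each tissue.

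Probes of the same gene did not always run together. For genes with several probes and no extreme value, all probe means had the same sign in 11 of 22 genes in brain, 11 of 22 in kidney, 11 of 23 in muscle and 10 of 21 in pancreas. This count was not made for other genes with several probes, so it cannot be read as a trait of the ribosomal protein genes. The median range between probes was 0.11, 0.059, 0.19 and 0.11 in those tissues. The widest were Rpl11 in brain (−0.022 to 0.98), Rpl35 in kidney (range 0.25), Rpl14 in muscle (range 1.32) and Rpl37 in pancreas (range 0.65). Ribosomal protein genes have many processed pseudogenes of near-identical sequence, and whether the cDNA probes also read these was not tested.

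The dye orientation moved members about as much as, or more than, the knockout mean. In the mean over arrays of each orientation, 34 of 61 members had opposite signs in brain (55.7%, against 63.0% of all genes), 37 in kidney (60.7%, against 67.7%), 35 in muscle (57.4%, against 65.2%) and 46 in pancreas (75.4%, against 77.3%). Brain member means had a median size of 0.054, kidney 0.058, muscle 0.11 and pancreas 0.073. The difference between orientations, divided by 2, had a median size of 0.086, 0.070, 0.14 and 0.24 in the same order. Over all genes, r between the paired arrays of each animal ran from −0.562 to 0.014. Averaging the 2 removes a dye effect only if all deposited ratios run the same way. If the Cy3 arrays ran the other way, 1 member would be called in muscle (Rpl31, −0.45) and 5 in pancreas (Rpl22l1, Rpl27a, Rpl36al, Rpl7l1 and Rps18). These 6 genes were chosen after their values were seen. Under that setting 328 genes were called in muscle and 2388 in pancreas. If all deposited ratios run the same way, that setting reads the difference between dye orientations and not the knockout.

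**Figure D5:**
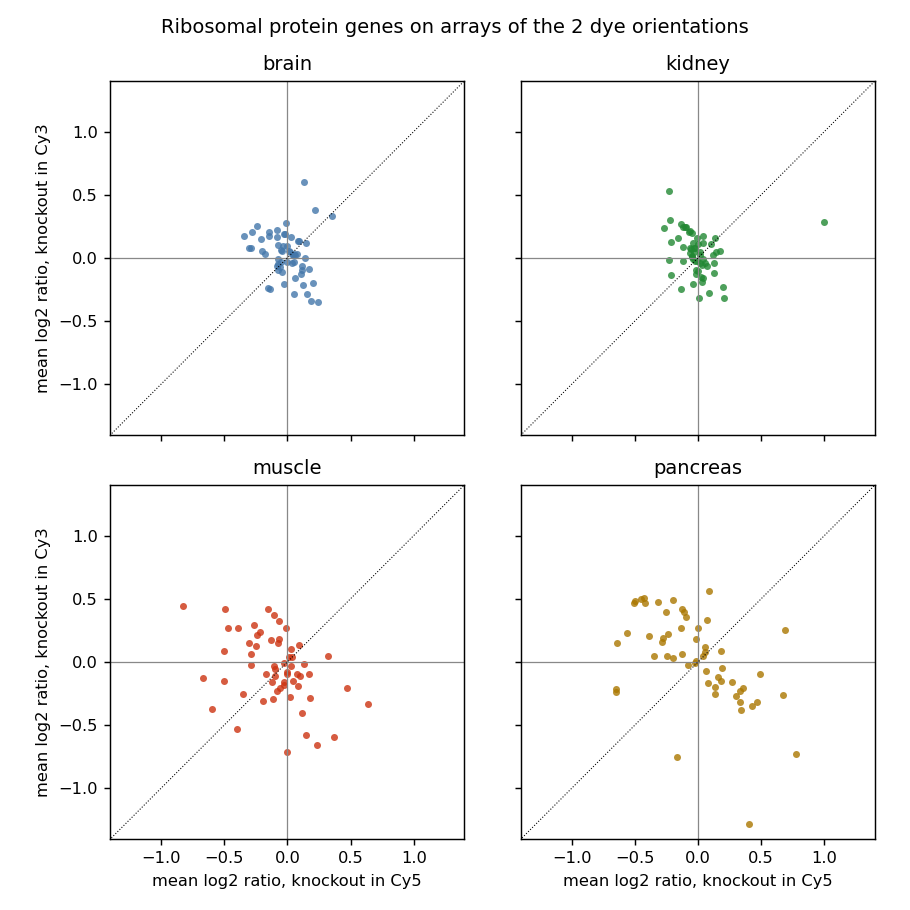
Mean log2 ratio of each ribosomal protein gene over arrays with the knockout in Cy5 (x) and in Cy3 (y), per tissue, without members that hold an extreme value. The dotted line marks equal values. Points spread across the diagonal, most of all in pancreas. There 46 of 61 members had opposite signs, a count that includes members not drawn.

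Between tissues, no ribosomal protein gene differed past the threshold. Each of 6 pairs was tested by limma in a fit of all tissues, with 58 members among 16257 genes, and 0 members were called in each. Genes called were 0 for kidney minus brain (0%), 75 for muscle minus brain (0.461%), 0 for pancreas minus brain (0%), 2 for muscle minus kidney (0.0123%), 0 for pancreas minus kidney (0%) and 94 for muscle minus pancreas (0.578%). With the animal as a replicate block the muscle pairs called 0 (against brain), 0 (against kidney) and 24 genes (against pancreas), and again 0 members. The smallest adjusted p of a member was 0.157, for muscle minus pancreas.

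At an unadjusted p under 0.05 the members marked were 2 for kidney minus brain (against 2.92% of genes), 8 for muscle minus brain (against 9.23%) and 2 for pancreas minus brain (against 8.29%). They were 4 for muscle minus kidney (against 6.23%), 6 for pancreas minus kidney (against 5.67%) and 9 for muscle minus pancreas (against 12.8%). In percent of members these were 3.45, 13.8, 3.45, 6.90, 10.3 and 15.5. All 8 for muscle minus brain were lower in muscle. Rpl14 was among them (difference −1.72), and its brain mean rests on 2 extreme values. Median differences over members were −0.058 for muscle minus brain, −0.089 for muscle minus kidney and −0.077 for muscle minus pancreas, against −0.030, −0.029 and −0.024 over all genes. The other 3 pairs had member medians of 0.0081 to 0.023.

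Rps19 had the smallest p toward lower muscle values in the pairs with kidney and brain. Its mean was −0.49 in muscle and 0.074 in kidney, a difference of −0.56 ± 0.16 (SE; limma adjusted p = 0.248). The difference between muscle and brain was −0.49 ± 0.16 (SE; limma adjusted p = 0.275), with a brain mean of 0.0020. Rps16 went the other way, at 0.13 in muscle against −0.15 in pancreas, a difference of 0.29 ± 0.10 (SE; limma adjusted p = 0.245), and against −0.072 in brain. Rps15a, a small subunit protein with a start tract of 8 bases, averaged 0.19 in muscle and −0.054 in kidney.

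Rpl37, a zinc-binding large subunit protein, averaged −0.092 in muscle and 0.47 in pancreas, a difference of −0.56 ± 0.17 (SE; limma adjusted p = 0.157). Its pancreas animals had 1.03, −0.014, 0.68 and 0.19. Its 2 probes there had means of −0.038 and 0.61, a range of 0.65. Rpl37 in pancreas minus brain differed by 0.43, and Rpl32 by −0.20, with a mean of −0.066 in pancreas and 0.13 in brain. Rpl37a averaged 0.068 in pancreas and −0.19 in kidney, a difference of 0.26 ± 0.082 (SE; limma adjusted p = 0.749). It was also lower in kidney than in brain, where its mean was −0.0084. Rplp2 averaged −0.44 in pancreas and 0.038 in kidney, and Rps6 0.10 in kidney and −0.065 in brain. None of these differences passed the test.

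Across tissues the members showed no common direction. Of 54 members with a mean in all 4 tissues and no extreme value, 3 were above 0 in all of them (Rpl36a, Rpl7l1 and Rps15; 5.56%, against 5.46% of other genes). Below 0 in all were 2 (Rpl12 and Rps7; 3.70%, against 6.22%). Rpl7l1 and Rps7 are named here after their values were seen. Over the members, the correlation between 2 animals of a tissue had a median r of 0.21 for brain, 0.18 for kidney, 0.12 for muscle and −0.025 for pancreas. These animals share the pool and the probes, and the other genes gave 0.014, 0.087, 0.16 and −0.0078.

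Other genes of the translation machinery were described by 6 lists, none of whose members were called in any tissue (0 of 144 measured for brain, 144 for kidney, 145 for muscle and 143 for pancreas). Unadjusted p values under 0.05 were found for 3 brain genes (2.08%), 7 kidney genes (4.86%), 12 muscle genes (8.28%) and 6 pancreas genes (4.20%), shares that compare with 4.13%, 9.28%, 7.29% and 2.91% of all genes. Ribosome biogenesis factors (60 measured) had medians of 0.019, −0.0053, −0.029 and −0.022 in brain, kidney, muscle and pancreas. The list of RNA polymerase I and III subunits and their transcription factors (15 measured) had −0.037, −0.026, −0.053 and −0.0040. Initiation factors (30, 31 in muscle) had −0.0073, 0.00033, −0.0014 and −0.0057. Elongation and termination factors (15) had 0.0014, 0.0031, −0.0037 and 0.0094. Regulators of mTOR and of tract-bearing messages (22, 21 in pancreas) had 0.023, 0.017, −0.016 and 0.044. Ribosomal proteins with other names (Fau and Rpsa) had 0.018, 0.032, −0.032 and −0.056.

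The gene of smallest unadjusted p in each list showed what single genes did. Tsc1, an inhibitor of mTOR complex 1, had 0.31, 0.50, 0.33 and 0.52 in muscle, a mean of 0.415 ± 0.068 (SE, n = 4; limma adjusted p = 0.538). Eif3i, a subunit of initiation factor 3, had 0.27, 0.91, 0.62 and 0.43 in muscle, a mean of 0.56 ± 0.12 (SE, n = 4; limma adjusted p = 0.538). Rrp1, a nucleolar protein of ribosomal RNA processing, had 0.20, 0.50, 0.41 and 0.52 in muscle, a mean of 0.40 ± 0.078 (SE, n = 4; limma adjusted p = 0.538). These 3 lay above 0 in all muscle animals, while the muscle medians of their own lists were below 0. Of the 12 translation genes with an unadjusted p under 0.05 in muscle, 5 were above and 7 below 0. With the spread shared over 4 tissues, limma called Eif3i (adjusted p = 0.0168) and Rrp1 (adjusted p = 0.0312), among 255 genes called in muscle under that setting. Polr1d, a subunit shared by RNA polymerases I and III, averaged −0.145 ± 0.044 (SE, n = 4) in kidney, and Eif5a, an elongation factor, −0.14 ± 0.051 (SE, n = 4). Fau, which encodes Rps30 fused to a ubiquitin-like protein, averaged 0.057 ± 0.037 (SE, n = 4) in kidney, above 0 in all 4 animals.

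Marker genes of 12 cell types were also read, with 0 of 98 called in brain, 0 of 99 in kidney, 0 of 97 in muscle and 0 of 96 in pancreas. List medians ran from −0.059 to 0.058 in brain, −0.025 to 0.079 in kidney, −0.11 to 0.044 in muscle and −0.11 to 0.065 in pancreas. In muscle, where the ribosomal protein median was −0.061 and 58.4% of all genes lay below 0, macrophage markers had a median of −0.11 (6 of 8 below 0) and neuron markers −0.093 (7 of 8 below). Endothelial markers had −0.076 (8 of 10 below), muscle fibre markers −0.061 (7 of 11 below) and fibroblast markers 0.041 (2 of 8 below). In muscle, limma gave 2 endothelial markers an unadjusted p under 0.05, and both were above 0. It gave the same to 1 macrophage and 1 muscle fibre marker, both below 0, and to 0 neuron and 0 fibroblast markers. The other 7 lists had muscle medians from −0.030 to 0.044. Their part in the ribosomal protein values was not tested.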

How the data were processed

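Gene expression was measured on 2-colour cDNA arrays in 4 tissues of 4 Nox4 -/- mice, with 2 dye-swapped arrays per tissue and animal, each against a wild-type pool. Labelling was indirect, with Cy3 and Cy5, from 20 µg of RNA, per the labels' protocols. The authors deposited a log2 ratio for most probes of each array (19815 to 20684 of 20794). The base was inferred from the extreme values and the direction from the labels, and for scanner, background correction and normalisation the method is not given in the sources used here. The number of animals and arrays limits the precision.

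Probes of a symbol were averaged per array, then the 2 arrays of an animal, both required. A probe without a value on an array was left out of that average, so the arrays of a gene can rest on different probes. Of 20794 probes, 12771 carry 1 symbol and 8023 none. Probes without a symbol entered as genes of their own. The mean was tested against 0 per tissue with limma 3.58.1 in R 4.3.3 (lmFit and eBayes, at least 3 animals, Benjamini-Hochberg over all genes, threshold 0.05). Tissue pairs came from 1 fit of all tissues with 12 residual degrees of freedom. The fits were tested on simulated data with a spread of its own for each gene and tissue. The single-tissue fit kept false calls near its threshold. The pair fit, which shares 1 spread per gene over the tissues, made more false calls than its threshold allows. Counts of genes called for pairs may therefore be too high. The setting with the spread shared over 4 tissues uses that same fit, and its false calls in a single tissue were not simulated. Extreme values (beyond 8) were kept.

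The labels state that each animal gave all 4 tissues, so animal numbers pair the tissues. Deviations of the same animal correlated at −0.102 to 0.124 between tissues.

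The members and lists were chosen with earlier results of these data known. Named genes are, per tissue, up to 3 highest and 3 lowest means among members of 1 sign in all animals, the smallest p in each direction per pair, the stalk genes, and the gene of smallest p per translation list. Alternatives covered extreme values, centring, scaling, array signs, probes, animals, spread, blocks and dye terms. RefSeq promoter sequences of GRCm38.p6 were matched by symbol (53 of 61). Protein features were not analysed here.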

Additional observations from a re-analysis of the deposited data

Results flagged for a closer look

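A gap between 1 animal and the other 3 was looked for in 55 groups of 4 animals, and 2 were marked. Chance alone marks about 1 in 20 groups, or 2.75 here. Rplp1 in muscle had −0.972 in knockout animal 3, while the other animals lay between −0.00050 and 0.092. Rplp2 in muscle had −0.163 in knockout animal 2, while the other animals lay between 0.028 and 0.035. Both genes encode stalk proteins. The causes were not tested.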

How the results depend on the processing

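Counts of 0 members called stayed at 0 in all alternatives except 4 (172 values). With the spread shared over 4 tissues, 1 member was called in muscle, among 255 genes called. With the Cy3 arrays turned in sign, 1 was called in muscle, 5 in pancreas and 2 of 58 in pancreas minus brain, where 1510 of 16257 genes were called. With the animal as a replicate block, 0 members were called in all 6 pairs, while genes called became 0, 0 and 24 for muscle minus brain, kidney and pancreas, against 75, 2 and 94 without it. It changed no other call. The ranges that follow leave out turned signs and the setting that took each probe singly. Genes called ran from 0 to 3 in brain, 0 to 8 in kidney, 0 to 255 in muscle and 0 to 57 in pancreas. For pairs they ran from 0 to 212 for muscle minus brain, 0 to 35 for muscle minus kidney and 0 to 151 for muscle minus pancreas. Turned signs gave 1 gene for brain, 0 for kidney, 328 for muscle and 2388 for pancreas. For pairs they gave 0 for kidney minus brain, 1 for muscle minus brain, 1510 for pancreas minus brain, 0 for muscle minus kidney, 355 for pancreas minus kidney and 5 for muscle minus pancreas. With weights for the spread of each tissue, 91 genes were called for muscle minus brain, 17 for muscle minus kidney and 0 for muscle minus pancreas. Fits of 8 arrays with a dye term were not run for pairs.

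Member medians with turned signs were −0.0071 in brain, −0.015 in kidney, −0.0036 in muscle, −0.028 in pancreas, −0.0054 for kidney minus brain, 0.0042 for muscle minus brain, −0.065 for pancreas minus brain, −0.0035 for muscle minus kidney, −0.025 for pancreas minus kidney and 0.020 for muscle minus pancreas. With arrays centred and scaled they were −0.0023 in brain, −0.050 for muscle minus kidney, −0.0074 for pancreas minus kidney and −0.056 for muscle minus pancreas. Probes present on both arrays gave −0.052 for muscle minus pancreas. Leaving out 1 animal gave 0.00029 to 0.022 in brain, −0.023 to 0.022 for kidney minus brain and −0.095 to −0.065 for muscle minus kidney.

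Named genes that changed sign did so mostly with turned array signs. In brain they were Rpl27 (−0.24), Rpl32 (−0.14), Rpl22 (0.044), Rpl12 (0.037), Rplp0 (0.30), Rplp1 (−0.015) and Rplp2 (0.056). In kidney they were Rps15 (−0.0098), Rps6 (−0.0038), Rpl37a (0.053), Rpl22 (0.083), Rplp1 (−0.038), Rplp2 (−0.076), Polr1d (0.085) and Eif5a (0.017). In muscle they were Rps16 (−0.29), Rpl36a (−0.24), Rpl11 (−0.14), Rps10 (0.069), Rplp0 (0.047), Rrp1 (−0.020), Eif3i (−0.044) and Tsc1 (−0.040), and in pancreas Rplp0 (−0.0030). Among pairs they were Rps6 in kidney minus brain (−0.011), Rps16 in muscle minus brain (−0.18) and muscle minus pancreas (−0.091), and Rps15a (−0.12) and Rps19 (0.014) in muscle minus kidney. Centred and scaled arrays gave Rplp0 0.0017 in brain. Leaving out 1 animal gave Rplp0 −0.13 to 0.12 in brain and −0.019 to 0.081 in pancreas. It gave Rplp1 −0.026 to 0.096 in brain, −0.017 to 0.028 in kidney, −0.31 to 0.045 in muscle and −0.60 to 0.15 in pancreas, and Rplp2 −0.036 to 0.030 in muscle. The causes of these changes were not tested.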
